A study of Mus musculus with 16 samples.

Results

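Lysosomal genes were followed in the mouse macrophage line RAW264.7 as a list of 36 genes for lysosomal proteases, glycosidases, sulfatases, lipid-handling proteins, membrane proteins, progranulin and the transcription factor Tfeb. A listed gene was taken as measured where a probe set of the array named it and no other gene. This held for 34 of the 36, out of 18820 genes measured in the series. Ctsb, a cysteine cathepsin, and Sgsh, a heparan sulfate sulfatase, had only probe sets that name several genes and are not analysed here.

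The series held 16 Affymetrix arrays in 4 groups of 4, all of cells exposed for 24 h. Control cells received the solvent, ethanol at 0.1% by volume. DHA5HT cells received 1 µM docosahexaenoyl serotonin, a conjugate of the n-3 fatty acid docosahexaenoic acid with serotonin. LPS cells received 1 µg/ml lipopolysaccharide, the endotoxin of bacterial outer membranes, with vehicle, and LPS+DHA5HT cells received both agents at those doses. Ethanol is named in the labels of control arrays alone, and the solvent of the other groups is not given in the sources used here. LPS+DHA5HT array 1 has conflicting labels, a title with both agents and a treatment entry with DHA5HT alone. It was grouped by its title, and the calls it enters were also made without it.

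Lysosomes are acidic organelles in which hydrolases break down proteins, sugars, sulfated polysaccharides and lipids taken up from outside or delivered by autophagy. In macrophages they degrade engulfed particles and microbes, supply peptides for presentation on MHC class II and release cholesterol from lipoproteins. Many of their genes carry a short motif called the CLEAR element near the transcription start, which is bound by TFEB and its relatives of the MiT/TFE family.

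The deposited values are log2 intensities, with array medians from 4.58 to 4.67. Il6, a cytokine that macrophages make in response to LPS, lay at 3.12 ± 0.12 (SD, n = 4) in control and 11.01 ± 0.12 (SD, n = 4) in LPS arrays, and at 10.21 in the array with conflicting labels. The 10 macrophage markers had group medians from 11.39 to 11.43, but moved with LPS: 5 rose and 4 fell, from Aif1 at −0.32 to Adgre1 at 3.94, and their summed log2 level was 102.6 to 104.2 in control and 108.6 to 110.3 in LPS arrays. Lymphocyte markers (12 measured) had group medians from 3.51 to 3.63, apart from Cd5 at 9.15 to 9.31, and 9 epithelial markers had group medians from 3.92 to 4.36. The median of both lists, 3.66, serves below as the level of genes that macrophages should lack. The summed log2 level of the lymphocyte list was 47.2 to 49.2 in control and 47.0 to 47.9 in LPS arrays, that of the epithelial list 36.5 to 37.4 and 36.7 to 37.1, and that of 7 fibroblast markers 27.9 to 29.2 and 28.7 to 30.0. Among 7 osteoclast markers (37.9 to 38.7 and 38.3 to 40.5) Ctsk, Acp5 and Calcr stayed at group means of 3.83 or less in every group, while with LPS Mmp9 rose by 2.60 to 10.48 and Dcstamp and Nfatc1 changed by −1.17 and −0.89. The part of these marker changes in the results that follow was not tested. LPS+DHA5HT array 4 stood apart on the second principal component (−22.4, other arrays −9.4 to 10.0), a component that held 4.72% of the variance.

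All 34 genes lay above 3.66, and above the median gene at 5.24, in every group. Group means ran from 6.37 for Galc in LPS to 12.73 for Ctsd in LPS+DHA5HT, and the SD within a group from 0.01 to 0.26 with a median of 0.07. Levels of different genes come from different probe sets and are not set against each other.

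The promoters are shown first because the genes differed in whether they carry the letters of the CLEAR element. RefSeq promoter windows (mouse assembly GRCm38.p6, 250 bases before to 50 after the start) were at hand for 32 of the 36 listed genes, not for Ctsb, Ctsh, Asah1 and Npc1, and 4 genes had several windows. A gene was counted when any of its windows held the word. Searched on both strands, TCACGTGA or GTCACGTG, words of the CLEAR type that both contain the E-box CACGTG, occurred in 9 of the 32 (28.1%), against 2.77% of all 27025 genes with a window and 3.81% of 14480 protein-coding genes measured here. Because many lysosomal genes are known to carry the element, this share describes the list and tests nothing. The 9 genes were Arsa, Cln3, Ctsa, Ctsd, Glb1, Lamp1, Mcoln1, Naglu and Sgsh. The plain E-box CACGTG was found in these and in Ctsl and Gaa, 11 of 32 (34.4%), against 8.09% of all genes with a window. The following stretches of 120 bases end at the base before the start and run 5′ to 3′ on the gene's strand, with each CACGTG in capitals. The first 4 genes, for a protease, a calcium channel, a membrane glycoprotein and a glycosidase, hold the word in this stretch. The last 3, from the 4 genes with the lowest LPS changes given further down, do not. Because the stretches were chosen by the word or by the LPS change, they tell nothing about a link between both.
Ctsd: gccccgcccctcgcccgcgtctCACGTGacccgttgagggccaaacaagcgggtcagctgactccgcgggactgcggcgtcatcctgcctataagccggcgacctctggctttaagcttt
Mcoln1: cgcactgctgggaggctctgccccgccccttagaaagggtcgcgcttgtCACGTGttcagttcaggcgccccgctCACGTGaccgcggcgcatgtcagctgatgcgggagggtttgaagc
Lamp1: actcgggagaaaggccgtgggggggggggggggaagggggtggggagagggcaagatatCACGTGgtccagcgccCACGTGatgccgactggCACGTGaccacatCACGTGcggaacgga
Glb1: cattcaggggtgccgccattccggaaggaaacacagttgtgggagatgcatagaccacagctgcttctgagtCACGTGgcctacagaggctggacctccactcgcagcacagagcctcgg
Arsb: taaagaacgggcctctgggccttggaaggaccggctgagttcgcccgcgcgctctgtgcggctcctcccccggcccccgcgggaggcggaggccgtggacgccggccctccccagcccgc
Scarb2: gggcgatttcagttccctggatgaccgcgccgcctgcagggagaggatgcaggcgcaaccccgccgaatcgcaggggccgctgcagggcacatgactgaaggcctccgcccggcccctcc
Galc: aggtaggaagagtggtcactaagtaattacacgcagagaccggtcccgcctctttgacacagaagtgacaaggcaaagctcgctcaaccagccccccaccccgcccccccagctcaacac
Ctsd lies at chr7:142387828-142387947 on the minus strand, Mcoln1 at chr8:3500399-3500518, Lamp1 at chr8:13159041-13159160 and Glb1 at chr9:114400958-114401077, all 3 on the plus strand. Arsb lies at chr13:93771559-93771678 on the plus strand, Scarb2 at chr5:92505658-92505777 and Galc at chr12:98259460-98259579, both on the minus strand. Lamp1 holds the word 4 times, starting 61, 45, 28 and 15 bases before the start, and Mcoln1 holds it at 71 and 45 bases. A match describes letters in this window and not a bound site, and a window without them says nothing about the factor.

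LPS against control asks how the genes answered the bacterial stimulus. LPS moved the genes in both directions. Of the 34, 5 rose and 14 fell (limma, Benjamini-Hochberg adjusted p under 0.05 over 18820 genes) and 15 did not pass. The genes that rose were Ctsl, Gaa, Npc2, Mcoln1 and Cln3. Those that fell were Ctss, Tpp1, Hexa, Galc, Gusb, Man2b1, Fuca1, Arsb, Lipa, Asah1, Psap, Lamp1, Scarb2 and Tfeb. In all genes 28.4% passed, 12.6% higher and 15.8% lower. Because the 34 are all bright, the 9410 genes brighter than the median gene were counted too, a choice made after seeing the levels: 49.5% of those passed, 20.9% higher and 28.6% lower. The number of lysosomal genes that passed is therefore near the share among these brighter genes. That set reaches down to 5.24, while group means of the 34 start at 6.37, so it is not matched in brightness. By direction, 14 of the 34 fell and 5 rose, beside 28.6% and 20.9%, and the difference from those shares was not tested. The median change was −0.02 over the 34 and 0.00 over all genes, and −0.05 and −0.01 after a further quantile normalization. The 4 LPS arrays lay all above the 4 control arrays for 7 genes and all below for 14, where 13.7% and 16.1% of all genes did. Shares without overlap were not counted among the brighter genes, here or further down, so these are not matched in brightness. In cultures measured in bulk, fewer cells with a transcript and less RNA per cell cannot be told apart.

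**Figure D1:**
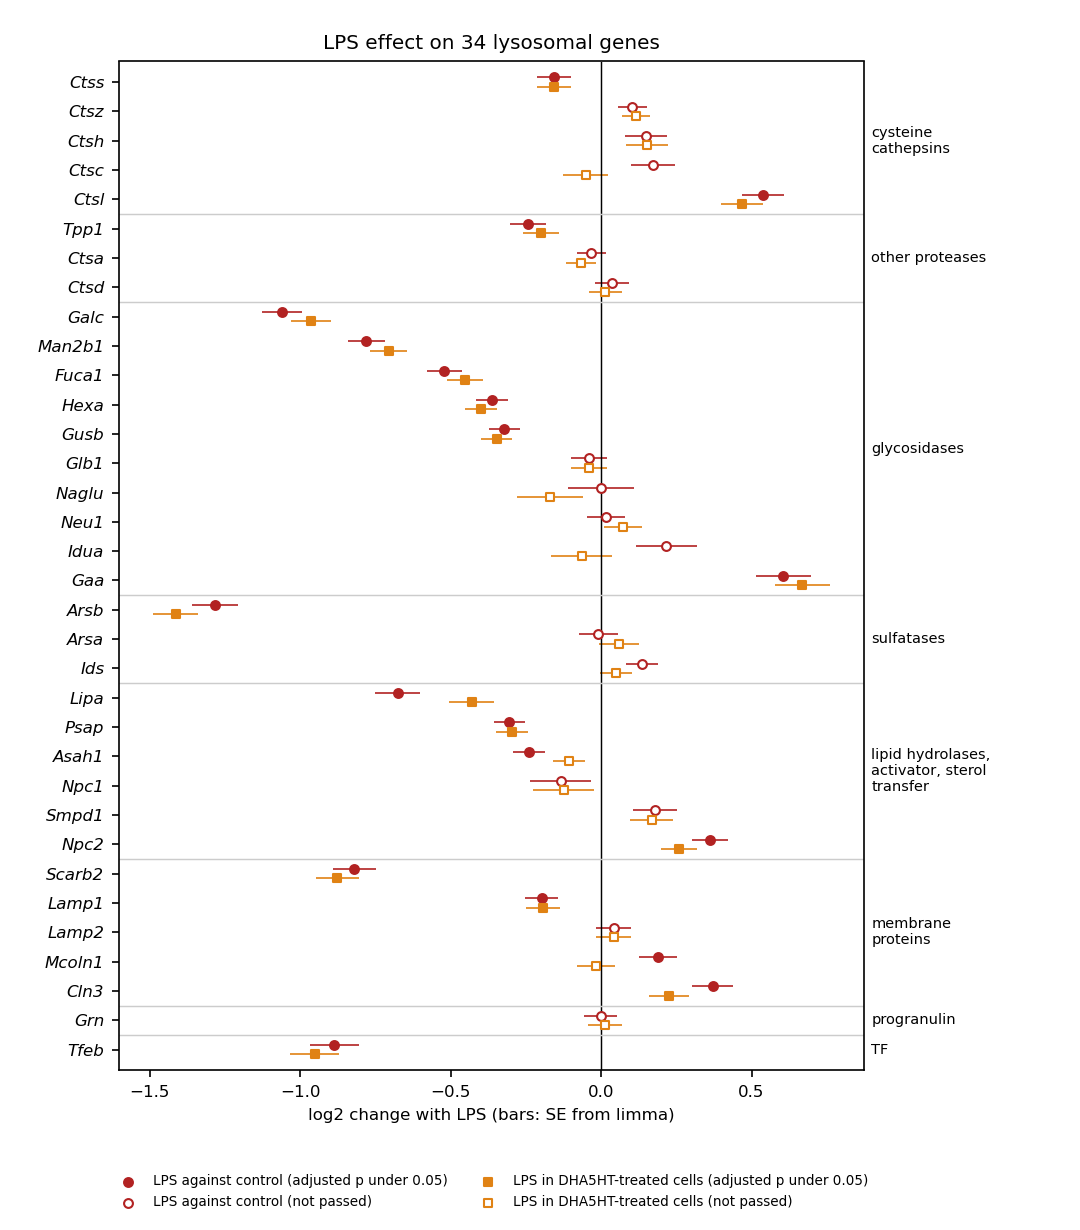
Change with LPS (horizontal axis, log2, bars are the SE from limma) for the 34 lysosomal genes, grouped by role and ordered within a role by the change against control; circles are LPS against control, squares LPS+DHA5HT against DHA5HT, and filled symbols passed at adjusted p under 0.05. Arsb and Galc lie farthest to the left (−1.28 and −1.06 against control) and Gaa and Ctsl farthest to the right (0.61 and 0.54).

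The cathepsins moved little apart from cathepsin L. Ctsl (probe set 10410124), a cysteine protease that degrades proteins within endosomes and lysosomes, read 10.78, 10.88, 10.81 and 10.77 in control and 11.34, 11.51, 11.26 and 11.29 in LPS arrays. All LPS arrays lay above all control arrays, a rise of 0.54 (SE 0.07, 1.45-fold, adjusted p = 9.46e-06). Ctss, which trims the invariant chain of MHC class II, went from 11.39 ± 0.05 (SD, n = 4) to 11.23 ± 0.05, a fall of 0.16 without overlap (adjusted p = 0.0417). That call was lost in 6 of the 8 fits that left out 1 array (−0.18 to −0.14, adjusted p 0.0330 to 0.110), all but those without control array 2 or LPS array 3, and in a fit on the compared arrays alone (adjusted p = 0.0746), and a further quantile normalization gave −0.25. The remaining cysteine cathepsins did not pass: Ctsc, which activates serine proteases of granules, at 0.17 (adjusted p = 0.0983), the aminopeptidase Ctsh at 0.15 (adjusted p = 0.131) and the carboxypeptidase Ctsz at 0.10 (adjusted p = 0.120). Thresholds aside, Ctsc passed in 3 of 8 other settings and Ctsz in 2. Ctsc and Ctsh each passed in 1 of the 8 fits without 1 array.

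Among the other proteases, Tpp1, a tripeptidyl peptidase, read 11.63, 11.71, 11.59 and 11.62 in control and 11.31, 11.51, 11.36 and 11.41 in LPS arrays, a fall of 0.24 (SE 0.06, adjusted p = 0.00479). The groups did not overlap. The aspartic protease Ctsd, at 12.64 ± 0.04 and 12.68 ± 0.06 (SD, n = 4), changed by 0.04 with a 95% confidence interval from −0.08 to 0.15. For Ctsa, a carboxypeptidase that also protects beta-galactosidase and sialidase, the change was −0.03 (−0.14 to 0.07).

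Glycosidases, which cut sugars from glycoproteins, glycolipids and glycosaminoglycans, were split as follows: of 10 measured, 5 fell, 1 rose and 4 did not pass, with a median change of −0.18. Among the genes brighter than the median gene 28.6% fell and 20.9% rose, and the difference from that share was not tested. Galc (probe set 10401968), which removes galactose from galactosylceramide, read 7.42, 7.54, 7.39 and 7.37 in control and 6.22, 6.45, 6.36 and 6.44 in LPS arrays. Its lowest control array stood well above its highest LPS array, and the change was −1.06 (SE 0.07, 2.09-fold lower, adjusted p = 1.28e-09). Man2b1 (probe set 10573583), the lysosomal alpha-mannosidase, read 10.31, 10.26, 10.46 and 10.38 and then 9.50, 9.55, 9.68 and 9.56. Again the groups were apart, by −0.78 (SE 0.06, 1.72-fold lower, adjusted p = 2.01e-08). Fuca1, the alpha-fucosidase, fell from 10.44 ± 0.08 to 9.92 ± 0.09 (SD, n = 4; 1.44-fold, adjusted p = 1.9e-06). Hexa, the alpha subunit of beta-hexosaminidase, fell by 0.36 (adjusted p = 4.36e-05) and Gusb, the beta-glucuronidase, by 0.32 (adjusted p = 0.000101), both without overlap.

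Gaa (probe set 10383088), the alpha-glucosidase that breaks down glycogen in lysosomes, moved the other way. It read 8.71, 8.91, 8.76 and 8.80 in control and 9.37, 9.48, 9.35 and 9.40 in LPS arrays. Every LPS array was higher than every control array, a rise of 0.61 (SE 0.09, 1.52-fold, adjusted p = 5.29e-05), the largest rise among the 34 genes. The glycosidases that did not pass were Glb1 (beta-galactosidase, −0.04), Neu1 (sialidase, 0.02), Naglu (alpha-N-acetylglucosaminidase, 0.00) and Idua (alpha-iduronidase, 0.22). Idua had the widest spread of all, with control arrays at 8.81, 8.79, 8.41 and 8.30.

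Of 3 sulfatases 1 fell. Arsb (probe set 10406663), which removes sulfate from dermatan and chondroitin sulfate, read 11.42, 11.28, 11.23 and 11.22 in control and 9.88, 10.05, 9.95 and 10.13 in LPS arrays. No array of one group came near the other, and the change of −1.28 (SE 0.08, 2.44-fold lower, adjusted p = 5.85e-10) was the largest of the 34 in either direction. Arsb has 2 probe sets, and their mean gave −1.44. Arsa, which acts on sulfatide in myelin and other membranes, changed by −0.01 (95% confidence interval −0.15 to 0.13), and Ids, which starts the breakdown of heparan and dermatan sulfate, by 0.14 (adjusted p = 0.0757), with all LPS arrays above the control arrays.

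Of 6 genes for lipid breakdown and sterol transfer 1 rose, 3 fell and 2 did not pass. Lipa (probe set 10467139), the acid lipase that frees cholesterol and fatty acids from lipoprotein lipids, read 12.08, 12.00, 11.99 and 12.10 in control and 11.28, 11.36, 11.41 and 11.41 in LPS arrays. The arrays separated completely, and Lipa fell by 0.68 (SE 0.07, 1.60-fold, adjusted p = 1.45e-06). Npc2 (probe set 10401519), which carries cholesterol within the lysosome and hands it to the membrane protein Npc1, read 9.76, 9.77, 9.66 and 9.85 and then 10.04, 10.17, 10.15 and 10.13. It rose by 0.36 (SE 0.06, 1.28-fold, adjusted p = 0.000128) with no overlap. Npc1 itself did not pass (−0.14, adjusted p = 0.385).

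In sphingolipid breakdown, Psap, the precursor of the saposins that help hydrolases reach their lipids, fell from 12.10 ± 0.04 to 11.79 ± 0.06 (SD, n = 4; adjusted p = 0.000227). Asah1, the acid ceramidase, fell from 10.11 ± 0.06 to 9.87 ± 0.05 (adjusted p = 0.00172). Both were without overlap. Smpd1, the acid sphingomyelinase, lay at 8.57 ± 0.09 in control and 8.75 ± 0.07 in LPS arrays and did not pass (adjusted p = 0.0746).

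Among 5 membrane proteins 2 fell, 2 rose and 1 did not pass. Scarb2 (probe set 10531437), also known as LIMP-2, the receptor that brings glucocerebrosidase to the lysosome, read 8.50, 8.45, 8.41 and 8.52 in control and 7.69, 7.60, 7.63 and 7.67 in LPS arrays. The groups were far apart and tight, and Scarb2 fell by 0.82 (SE 0.07, 1.77-fold, adjusted p = 9.05e-08). Lamp1, an abundant glycoprotein of the lysosomal membrane, fell by 0.20 (SE 0.06, adjusted p = 0.0114), also without overlap, while Lamp2, its relative with roles in autophagy, changed by 0.04 (95% confidence interval −0.08 to 0.16).

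Cln3, a membrane protein mutated in juvenile Batten disease, rose. It read 9.41, 9.75, 9.54 and 9.62 in control and 9.97, 9.98, 9.92 and 9.92 in LPS arrays, so all LPS arrays were above the control arrays (0.37, SE 0.07, adjusted p = 0.000332). Mcoln1, the lysosomal calcium channel TRPML1, read 9.67, 9.81, 9.65 and 9.81 and then 9.83, 9.99, 9.94 and 9.94, a rise of 0.19 (adjusted p = 0.0299). Its groups were separated by a narrow gap, and 5 of the 8 fits without 1 array lost the call (0.16 to 0.22, adjusted p 0.0203 to 0.0960); only those without control array 2 or 4 or LPS array 1 kept it. It was also lost after a further quantile normalization (adjusted p = 0.0544) and in the fit on the compared arrays alone (adjusted p = 0.0539).

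Grn, which encodes progranulin, a lysosomal and secreted glycoprotein, read 12.60 ± 0.07 in control and 12.60 ± 0.05 in LPS arrays (SD, n = 4), with a 95% confidence interval for the change of −0.12 to 0.12. Tfeb (probe set 10445729), the factor that drives many lysosomal genes, read 8.64, 8.77, 8.65 and 8.74 in control and 7.92, 7.75, 7.92 and 7.67 in LPS arrays. All LPS arrays were lower, a fall of 0.89 (SE 0.08, 1.85-fold, adjusted p = 1.57e-07).

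**Figure D2:**
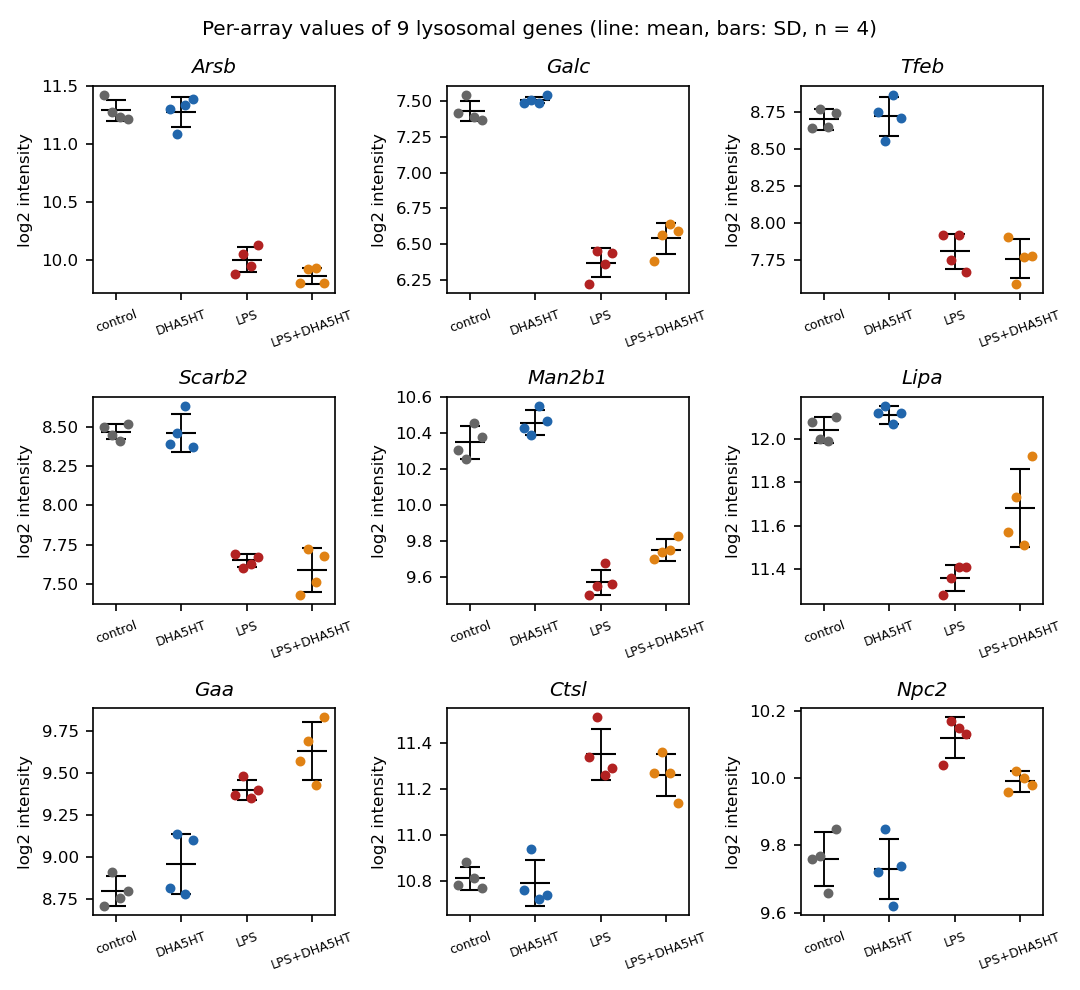
Log2 intensity (vertical axis, own scale in each panel) of 9 lysosomal genes in each of the 16 arrays; points are arrays, the line is the group mean and bars are the SD (n = 4). In the panels of Arsb, Galc, Tfeb, Scarb2, Man2b1 and Lipa the arrays with LPS lie below those without, and in the panels of Gaa, Ctsl and Npc2 they lie above.

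Set beside the promoters, most of the few genes that rose with LPS hold an E-box. Of 5 genes that rose, 4 hold CACGTG in the window (Cln3, Ctsl, Gaa and Mcoln1), of 13 that fell and have a window 1 does (Lamp1), and of 13 that did not pass 5 do (Arsa, Ctsa, Ctsd, Glb1 and Naglu). Of the 4, Mcoln1 lost its call in 5 of the 8 fits without 1 array. With LPS in DHA5HT-treated cells Mcoln1 changed by −0.02. The median LPS change was 0.02 over the 10 measured genes with the word (−0.20 to 0.61) and −0.24 over the 21 without (−1.28 to 0.36). Among all 14480 protein-coding genes measured here the word was held by 11% of those that rose, 11.5% of those that fell and 8.88% of those that did not pass. Among the brighter of these genes the shares were 11.3%, 12% and 13.2% in the same order. No test was made of this pattern, which was noted after the changes were known. Cln3 holds it 149 and 121 bases before the start and Ctsl 236 bases before it, and the CLEAR-type words occur in 2 of the 5 genes that rose, Cln3 and Mcoln1.

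**Figure D3:**
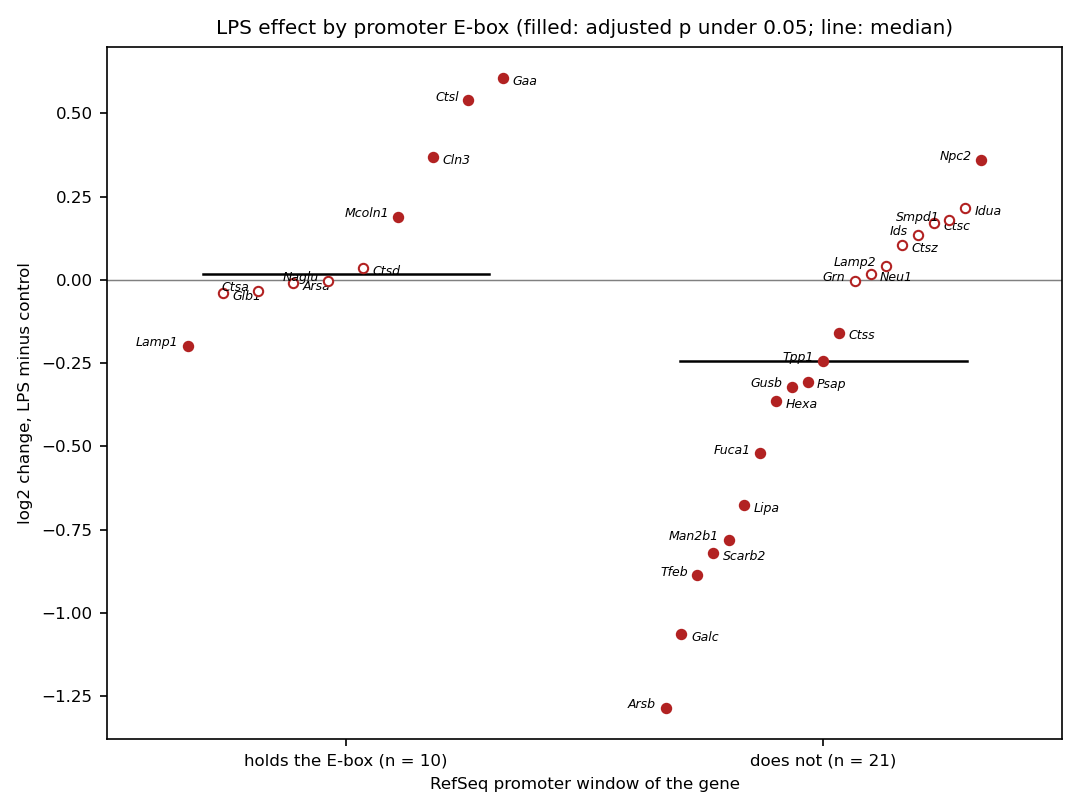
Change with LPS against control (vertical axis, log2) of the 31 measured lysosomal genes with a RefSeq promoter window, by whether the window holds the E-box; filled points passed at adjusted p under 0.05 and the line is the median. The 10 genes with the word have a median of 0.02 and the 21 without it one of −0.24, with overlapping ranges.

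LPS in DHA5HT-treated cells, the comparison of LPS+DHA5HT with DHA5HT, takes its changes from the 8 arrays that LPS against control does not compare. The spread was estimated over all 16 arrays, so the calls of both comparisons are not independent. There 4 genes rose and 13 fell, where 28.1% of all genes passed (12.4% higher and 15.7% lower) and 49.3% of the genes brighter than the median gene. All 17 had moved the same way in LPS against control. Over the 34 genes, 11 changes were positive in both comparisons and 18 negative in both. Such agreement was not counted over all genes, so it is not read as a trait of the list. Arsb read 11.30, 11.09, 11.34 and 11.39 in DHA5HT and 9.80, 9.92, 9.93 and 9.80 in LPS+DHA5HT arrays, again without overlap (−1.42, 2.67-fold lower, adjusted p = 1.91e-10). Tfeb read 8.75, 8.55, 8.86 and 8.71 and then 7.91, 7.59, 7.77 and 7.78, all lower with LPS (−0.95, adjusted p = 7.66e-08). Galc changed by −0.97 (adjusted p = 5.4e-09), Scarb2 by −0.88, Man2b1 by −0.71, Gaa by 0.67 and Ctsl by 0.47, all without overlap. The median change over the 34 was −0.066, and −0.136 after a further quantile normalization, beside −0.004 and −0.012 over all genes. Small changes of these genes therefore depended on the normalization.

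The genes that passed in LPS against control and not here were Asah1 (−0.11, adjusted p = 0.162) and Mcoln1 (−0.02, adjusted p = 0.899), and whether the responses differ is the interaction test given further down. Without the array of conflicting labels 15 genes passed, all of them among the 17: Ctss (−0.11, adjusted p = 0.153) and Tpp1 (−0.17, adjusted p = 0.0586) lost their calls. Ctss lost it in 7 of 8 fits without 1 array, all but that without LPS+DHA5HT array 2, Tpp1 also without DHA5HT array 2 (−0.16, adjusted p = 0.0705) and Cln3 without DHA5HT array 3 (0.20, adjusted p = 0.0583).

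Other genes of the pathway were taken as 7 lists with 145 genes, 130 of them measured. With LPS against control 24 rose, 31 fell and 75 did not pass, with a median change of −0.05, where 28.4% of all genes and 49.5% of the brighter genes passed. Of 18 subunits of the V-ATPase, the proton pump that acidifies lysosomes, 3 rose and 2 fell, among them Atp6v1e1 (0.47, adjusted p = 3.58e-06), Atp6v1h (0.30, adjusted p = 0.00217) and Atp6v0e2 (−0.20, adjusted p = 0.00696). Of 25 further hydrolases and cofactors 5 rose and 7 fell. The 3 with the smallest p all fell: the carboxypeptidase Prcp (−0.76, adjusted p = 2.22e-08), the beta-mannosidase Manba (−0.64, adjusted p = 1.03e-07) and the asparaginyl endopeptidase Lgmn (−0.63, adjusted p = 1.05e-07).

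Of 28 further membrane proteins and transporters 8 rose and 9 fell. Slc15a3, a peptide transporter, rose by 0.77 (adjusted p = 3.4e-08) and the sialomucin Cd164 by 0.62 (adjusted p = 9.99e-07), while Tpcn1, an endolysosomal cation channel, fell by 0.98 (adjusted p = 1.06e-07). Among 13 genes that tag hydrolases with mannose 6-phosphate or sort them, 2 rose and 4 fell, led by the sorting adaptors Gga2 (−0.45), Ap3d1 (−0.37) and Gga3 (−0.24). Of 22 autophagy and fusion genes 3 rose and 4 fell, with Gabarapl1, which encodes a protein of the autophagosome membrane, at 0.38, Uvrag at −0.39 and Plekhm1, an adaptor for lysosome fusion, at −0.60. Of 4 cystatins, which inhibit cysteine cathepsins, Cst3 fell by 0.39 and Cstb rose by 0.43.

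Among 20 genes of the MiT/TFE factors and of mTORC1 control at the lysosome 2 rose and 4 fell. The mTORC1 subunit gene Rptor (−0.34), the anchor gene Lamtor1 (−0.33) and Flcn, a regulator of the Rag GTPases (−0.34), were lower. The 2 that rose were relatives of Tfeb. Mitf read 8.34, 8.34, 8.08 and 8.38 in control and 8.55, 8.83, 8.61 and 8.52 in LPS arrays (0.34, adjusted p = 0.00882), although the mean of its probe sets did not pass (0.16, adjusted p = 0.316). Tfec read 3.96, 3.91, 3.94 and 4.08 and then 4.24, 4.13, 4.55 and 4.30 (0.33, adjusted p = 0.0209), levels close to the 3.66 of genes that macrophages should lack. Leaving out LPS array 3, control array 2 or control array 3 ended its call (adjusted p up to 0.0846). In DHA5HT-treated cells LPS raised Mitf by 0.48 and Tfec by 0.63 (0.53 and 0.65 without the array of conflicting labels). Tfe3, the remaining relative, named here after its values were seen, changed by −0.07 (adjusted p = 0.394). The groups did not overlap for Mitf, Tfec or Tfeb, where 13.7% of all genes lay higher without overlap and 16.1% lower. By the probe sets used, Tfeb was lower and Mitf and Tfec were higher after LPS. In LPS against control the Mitf rise depended on the probe set and the Tfec call on single arrays. With LPS in DHA5HT-treated cells neither call was lost in the 8 fits without 1 array.

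DHA5HT in LPS-treated cells asks whether the compound altered the lysosomal genes of stimulated cells. Of the 34 genes 1 rose, Lipa, and 0 fell, where 1.79% of all genes (0.818% higher and 0.972% lower) and 3.02% of the brighter genes passed. Changes ran from −0.27 to 0.32 with a median of 0.01. At an unadjusted p under 0.05 were 8 of the 34, and the share of all genes at that level was not counted. No 95% confidence interval reached beyond −0.46 or 0.48. With the array number as a replicate block 2 genes passed, Lipa (adjusted p = 0.0222) and Ctsc, and 647 of all genes in place of 337. Without the array of conflicting labels Lipa was again the 1 gene that passed, and Ctsc (−0.29), Cln3 (−0.22) and Man2b1 (0.20) again did not.

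Lipa read 11.28, 11.36, 11.41 and 11.41 in LPS and 11.57, 11.73, 11.51 and 11.92 in LPS+DHA5HT arrays. All LPS+DHA5HT arrays lay above the LPS arrays and below the lowest control array at 11.99. The rise was 0.32 (SE 0.07, 1.25-fold, adjusted p = 0.0381), less than the fall with LPS. It was kept without LPS+DHA5HT array 1 (0.36, adjusted p = 0.0442) or array 3, and lost in the other 6 fits without 1 array (0.24 to 0.38 over all 8, adjusted p 0.0168 to 0.103). It was also lost in a fit on the compared arrays alone (adjusted p = 0.170). The highest value, 11.92, came from LPS+DHA5HT array 4, the array that stood apart on the second principal component, and without it the change was 0.24 (adjusted p = 0.0961).

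Groups without overlap were found for 6 genes, 3 higher and 3 lower with DHA5HT, where 3.97% and 3.91% of all genes showed this. Higher beside Lipa were Man2b1 (0.18, adjusted p = 0.152) and Fuca1 (0.14, adjusted p = 0.270), neither past the threshold. Man2b1 read 9.50, 9.55, 9.68 and 9.56 in LPS and 9.70, 9.74, 9.75 and 9.83 in LPS+DHA5HT arrays. Lower were Ctsc (−0.27, adjusted p = 0.0733), Cln3 (−0.21, adjusted p = 0.146) and Npc2 (−0.13, adjusted p = 0.334), which did not pass.

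Ctsc read 11.76, 11.72, 11.70 and 11.64 in LPS and 11.49, 11.48, 11.53 and 11.23 in LPS+DHA5HT arrays, with array 4 lowest. It passed with the array number as a replicate block (adjusted p = 0.0212), with an intensity trend in the variance (adjusted p = 0.0204) and when bright genes alone were fitted (adjusted p = 0.0322), but in none of the 8 fits without 1 array (adjusted p 0.0670 to 0.210). Cln3 read 9.97, 9.98, 9.92 and 9.92 in LPS and 9.77, 9.72, 9.75 and 9.74 in LPS+DHA5HT arrays, a narrow spread in both. Tfeb (−0.05) and the membrane glycoprotein gene Lamp1 (0.07) lay within their spread.

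**Figure D4:**
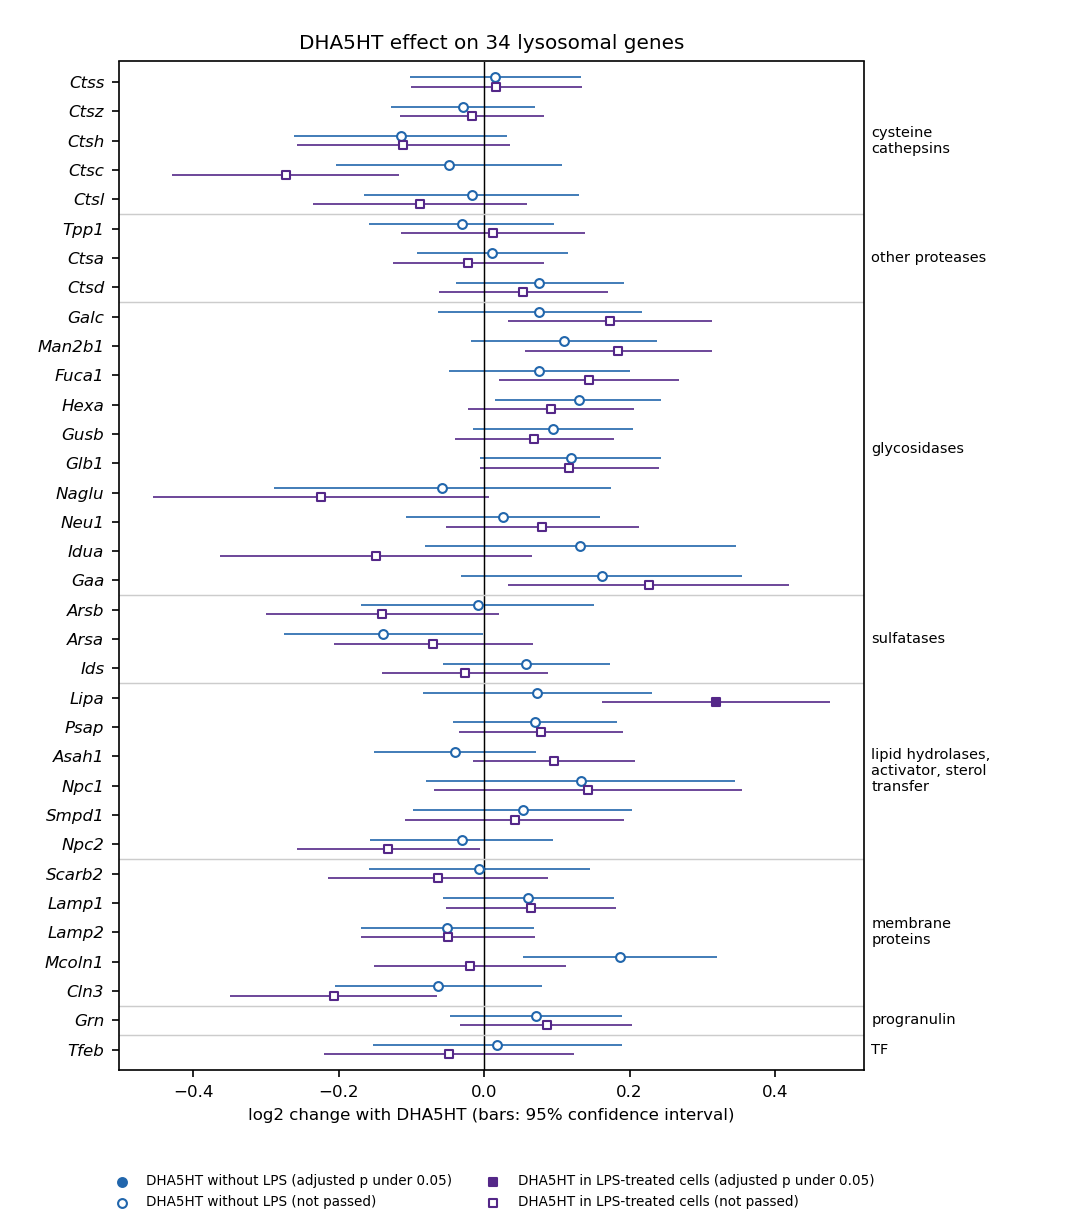
Change with DHA5HT (horizontal axis, log2, bars are 95% confidence intervals from limma) for the 34 lysosomal genes in the order of the LPS plot; circles are DHA5HT against control, squares LPS+DHA5HT against LPS, and filled symbols passed at adjusted p under 0.05. Lipa in LPS-treated cells (0.32) is the 1 filled symbol, and all intervals lie between −0.46 and 0.48.

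DHA5HT without LPS asks the same of resting cells. None of the 34 genes passed in limma, where 0.6% of all genes (0.122% higher and 0.478% lower) and 1.08% of the brighter genes passed. At an unadjusted p under 0.05 were 3 of the 34, and the share of all genes at that level was not counted. With the replicate block 0 of the 34 passed, and 179 of all genes in place of 113. Changes ran from −0.14 to 0.19, with 95% confidence intervals between −0.29 and 0.36. Mcoln1 read 9.67, 9.81, 9.65 and 9.81 in control and 9.83, 10.05, 9.91 and 9.90 in DHA5HT arrays. The arrays did not overlap, and the change of 0.19 (SE 0.06) did not pass (adjusted p = 0.300). Hexa (0.13, adjusted p = 0.444) and Gusb (0.10, adjusted p = 0.585) were also without overlap, the 3 genes in all that lay higher, where 3.03% of all genes did, and 0 lay lower, where 2.85% did. Lipa changed by 0.07 (adjusted p = 0.812).

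The DHA5HT comparisons share no arrays in their changes, though they share the spread estimated over all 16 arrays. Across the 34 genes 16 changes were positive in both and 11 negative in both. Shared signs were not counted over all genes, so these counts and those by role below have no share beside them. Of the 10 glycosidases 8 were positive in both (Hexa, Gaa, Galc, Glb1, Gusb, Man2b1, Neu1 and Fuca1), with medians of 0.10 in each, against medians of 0.00 and 0.01 over all genes with and without LPS. This lean was not confined to glycosidases. Of 6 genes for lipid breakdown and sterol transfer 4 were positive in both (medians 0.09 and 0.06). The 130 pathway genes had medians of 0.055 and 0.049. Sulfatases (−0.07 and −0.01) and membrane proteins (−0.05 and −0.01) had negative medians. Of the 5 cysteine cathepsins 4 were negative in both, with medians of −0.09 with LPS and −0.03 without. None of these glycosidases passed in either comparison, with or without the replicate block, and the grouping was noted after the values were seen. Of the 130 pathway genes 0 passed without LPS (18 with an unadjusted p under 0.05, a level not counted over all genes). In LPS-treated cells 1 rose, Tfec, from 4.30 ± 0.18 to 4.76 ± 0.19 (SD, n = 4; 0.46, adjusted p = 0.0313), with 4.53 in the lowest LPS+DHA5HT and 4.55 in the highest LPS array. The Tfec call held when LPS array 3 or LPS+DHA5HT array 3 was left out and was lost in the other 6 fits without 1 array (adjusted p 0.0137 to 0.106 over all 8), that without the array of conflicting labels included (adjusted p = 0.0632).

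The interaction is the DHA5HT effect in LPS-treated cells minus that in resting cells. It was past the threshold for 0 of the 34 genes in limma, while 0.329% of all genes and 0.51% of the brighter genes passed. At an unadjusted p under 0.05 were 3 of the 34, and the share of all genes at that level was not counted. Those 3 were Lipa (0.25, SE 0.11, adjusted p = 0.592), Mcoln1 (−0.21, SE 0.09, adjusted p = 0.594) and Ctsc (−0.22, SE 0.10, adjusted p = 0.641). The 95% confidence intervals, not adjusted for the number of genes, were 0.02 to 0.47 for Lipa and −0.40 to −0.02 for Mcoln1. By the adjusted p the DHA5HT effects on these genes are not shown to differ between resting and LPS-treated cells.

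Described by array, the median over the 34 genes of a gene's value minus its own mean over 16 arrays was −0.01 to 0.07 in control, 0.00 to 0.12 in DHA5HT, −0.11 to −0.01 in LPS and −0.06 to 0.01 in LPS+DHA5HT arrays. The same median over all genes stayed between −0.01 and 0.01 in every array. In arrays with LPS 10 to 17 of the 34 genes lay above their own mean, and 16 to 26 in arrays without it.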

How the data were processed

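RNA of RAW264.7 cells was labelled and hybridised to 16 Affymetrix whole-transcript arrays. The authors deposited log2 values made with RMA, per the submitters' processing notes; its version, the annotation used and any filter are not given in the sources used here. RMA corrects background, normalizes between arrays and gives 1 value per probe set, so changes of dim genes can be compressed. Of 35556 probe sets 21218 named 1 gene in the array's gene table, 1881 named several and 12457 were not listed there. The 1386 genes with several probe sets were represented by the one with the highest mean over 16 arrays. This left 18820 genes, of which 18790 were found in the RefSeq gene table.

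Groups follow the titles. Whether arrays of a group stem from independent cultures is not stated, so the tests capture the variation among these arrays, which may be technical, and the small number of arrays limits the precision. No pair of arrays held identical values. The titles number the arrays, and nothing says what a number shares. In deviations from the group means, same-numbered arrays correlated at 0.116 to 0.205 between LPS and LPS+DHA5HT and at 0.131 to 0.183 between control and DHA5HT, above 0.1 in all 4 pairs of each, so for the DHA5HT comparisons blocked values are given beside the results. For LPS against control (0.099 to 0.131) and LPS in DHA5HT-treated cells (0.07 to 0.232) a pair lay below 0.1 and the block is given among the alternatives. A linear model with 4 group means over 16 arrays was fitted with lmFit and eBayes of limma (version 3.58.1, in R 4.3.3), two-sided, with Benjamini-Hochberg adjustment over 18820 genes within each of 5 comparisons at a threshold of 0.05. Any of the 34 measured genes could be named with values, and of each pathway list up to 3 genes with the smallest p past the threshold in a comparison. Members, lists and comparisons were chosen with earlier results of these data known. Other settings tried were an intensity trend, a replicate block, brighter genes alone, a further quantile normalization, median centring, the mean over probe sets, array weights, thresholds of 0.01 and 0.1, a fit on the compared arrays alone and leaving out each array.

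The fit was tested on simulated data with 18820 genes. Of these, 100 were given a change of 0.5 and 100 a change of 1 in each comparison. In the real data 5346 genes passed for LPS against control, so the simulation does not match it in the number of changed genes. Changes of 0.5 and 1 were recovered at 83% and 97% for LPS against control, 84% and 100% for DHA5HT without LPS, 81% and 98% for DHA5HT in LPS-treated cells, 83% and 99% for LPS in DHA5HT-treated cells and 38% and 91% for the interaction. No DHA5HT change and no interaction value of the 34 genes reached 0.5 in size. The recovery shares therefore do not tell how often such smaller changes would be found. Promoter windows came from RefSeq (GRCm38.p6) and were searched in Python 3.11.15. Figures were drawn with matplotlib 3.10.9.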

Additional observations from a re-analysis of the deposited data

Results flagged for a closer look

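In 5 of 136 groups of 4 arrays tested, 1 array lay far from the other 3 for the group's range by Dixon's criterion, which chance meets in about 5% of groups. Ctsc in LPS+DHA5HT array 4 read 11.23, below the other arrays of its group at 11.48 to 11.53. Ctsh in control array 3 read 8.60, above 8.37 to 8.41. Ctss in DHA5HT array 4 read 11.45, above 11.39 to 11.40. Arsa in control array 1 read 7.38, below 7.54 to 7.57. Npc1 in DHA5HT array 2 read 9.57, above 9.14 to 9.19. Each of the 5 came from a different array.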

How the results depend on the processing

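The number of lysosomal genes past the threshold ranged over the alternatives from 16 to 23 for LPS against control (19 as reported) and from 13 to 19 for LPS in DHA5HT-treated cells (17 as reported), and was 0 in each alternative run for DHA5HT without LPS and for the interaction. For DHA5HT in LPS-treated cells it was 1 as reported, 2 with an intensity trend, on brighter genes alone or at a threshold of 0.1, 0 at a threshold of 0.01 or in the fit on the compared arrays alone, and 0 to 1 without 1 array. Over all genes that comparison gave 337 calls, against 81 at a threshold of 0.01, 86 on the compared arrays alone, 557 on brighter genes alone, 619 at a threshold of 0.1 and 143 to 289 without 1 array. It fell by over 1.5 times when any LPS array was left out (222, 143, 223 and 177 for arrays 1 to 4), and likewise for LPS+DHA5HT array 1 (180) and array 4 (154). DHA5HT without LPS gave 113 calls and the interaction 62, against 77 and 28 at a threshold of 0.01, and the interaction 34 without LPS array 2, 37 without LPS array 1 and 35 without DHA5HT array 1, with 41 without control array 2.

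No called lysosomal gene changed sign in any alternative run. Beside the cathepsins above, some uncalled genes passed in alternatives of LPS against control. Thresholds aside, Smpd1 and Ids did so in 2 of 8 other settings each. Of the 8 fits without 1 array, Idua passed in 2 and Smpd1 in 1. With LPS against control, uncalled changes near 0 turned sign for Naglu (0.009 after a further quantile normalization, 0.007 with array weights, −0.094 to 0.064 without 1 array), Arsa (0.04 after quantile normalization, −0.054 to 0.02 without 1 array), Lamp2 (−0.033 after quantile normalization), Neu1 (−0.024 to 0.041 without 1 array) and Grn (−0.019 to 0.031 without 1 array). In DHA5HT-treated cells they did for Mcoln1 (−0.048 to 0.025 without 1 array), Tfe3 (−0.044 to 0.012), Ctsc (−0.088 to 0.015), Ctsd (−0.007 to 0.044, and −0.001 after quantile normalization), Grn (−0.015 to 0.034, and −0.01 after quantile normalization) and Lamp2 (−0.052 after quantile normalization). Among the uncalled changes with DHA5HT signs turned in 9 fits of 1 gene without 1 array in LPS-treated cells, in 17 such fits and 1 other in resting cells, and in 68 such fits and 8 others for the interaction. Counting the plain E-box gave 11 promoters in place of the 9 with CLEAR-type words. The cause of these changes was not tested.

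With the replicate block 21 lysosomal genes passed for LPS against control, 18 for LPS in DHA5HT-treated cells, 2 for DHA5HT in LPS-treated cells and 0 for the other comparisons, and 96 of all genes passed for the interaction. The block ended no call of a lysosomal gene. Of 16 arrays 15 correlated best with their own number, a hint from the data and not the design. Whether changes of the brightest genes, such as Ctsd near the top of the range at 13.68, were compressed was not tested.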

Other observations

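Of 115 other genes of the lysosomal pathway with a RefSeq promoter window 27 (23.5%) hold the E-box CACGTG and 19 (16.5%) a CLEAR-type word, against 9.59% and 3.81% of the protein-coding genes measured here. The CLEAR-type words lie in 4 of 13 V-ATPase subunit genes (Atp6v0b, Atp6v0d1, Atp6v0e and Atp6v1a) and in 4 of 12 genes of mannose 6-phosphate tagging and sorting (Gga2, Gnptg, Igf2r and Nagpa). Of the pathway genes named with LPS changes, Gga2 and Lgmn hold a CLEAR-type word and fell, and Cd164 holds one and rose. Lamtor1 holds the plain E-box and fell. These shares are descriptions with no test.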
